A study of Mus musculus with 4 samples.

Results

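Smooth muscle cells, pericytes and pancreatic stellate cells make up much of the contractile and supporting tissue around the ducts, vessels and acini of the pancreas, and 10 genes that mark them were examined in pancreas of Cyp11a1 knockout (KO) and wild-type (WT) mouse embryos. The genes were Acta2, Cnn1, Myh11, Tagln, Myl9, Des, Vim, Pdgfra, Pdgfrb and Dcn. They were taken as a named set, and every probe whose RefSeq transcript belongs to one of them was read. This gave 14 probes in 41 spots, of 41174 probes on the array. All 14 passed the filter on dim spots, as did 32588 probes of the array, and the 10 genes stood among 15523 genes with a tested probe. Cyp11a1 encodes the mitochondrial enzyme that makes pregnenolone from cholesterol, the first step of steroid hormone synthesis.

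All extracts were whole pancreas at E18.5 from the strain C57BL/6JNarl. The labels do not say how the knockout allele was made. Each of 4 arrays carried 1 KO extract in red (Alexa 647) and 1 WT extract in green (Alexa 555), with no array dyed the other way, so a dye effect of a single probe and the genotype cannot be told apart. The labels call the arrays biological replicates, and the number of embryos behind an extract, their litters and their sex are not given. Xist, the RNA of the inactive X chromosome, gave a log2 ratio of -3.91, -0.28, -4.22 and 3.46 on arrays 1 to 4, so the extracts of arrays 1, 3 and 4 differed in it, array 4 in the opposite direction, and its part in the values below was not tested. Values below are log2 ratios of KO over WT after background correction and loess normalisation, with the standard error (SE) of limma's fit over 4 arrays, and adjusted p-values are limma's, adjusted by the Benjamini-Hochberg method over all 32588 tested probes, with a threshold of 0.05. The array number limits the precision.

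Contractile smooth muscle cells slide actin filaments over myosin under the control of calcium and myosin light chain phosphorylation. Their contractile genes are switched on by serum response factor (SRF), which binds CArG boxes in DNA, with its cofactor myocardin, and TGF-beta raises the same genes when fibroblasts or stellate cells become myofibroblasts. Platelet-derived growth factors act through 2 receptors, Pdgfra on mesenchyme and Pdgfrb on pericytes and smooth muscle precursors. Quiescent stellate cells of the pancreas carry desmin and store vitamin A, and activated ones gain alpha smooth muscle actin and matrix genes.

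Promoters are shown for 3 of the contractile genes, since SRF binding to such sequences is textbook knowledge for this group. RefSeq promoter sequence of build GRCm38.p6, 250 bases before to 50 bases after the start, was matched for 6 of the 10 genes. The motif searched was the CArG box, a CC pair and a GG pair around A and T bases, 10 bases long and read on both strands, and matches are in capitals. Cnn1 is shown because it is the contractile gene that passed the test, and Acta2 and Myl9 because their windows hold matches. The Acta2 window (chr19:34255324-34255623, minus strand) holds 2 matches with 1 base off the motif, CCCTATATGG starting 84 bases before the start and CCTTGTTTGG starting 34 bases before it. The Myl9 window (chr2:156775214-156775513, plus strand) holds 1 exact match, CCTAATAAGG, starting 161 bases before the start, and CCTTGTAAGG, with 1 base off, 99 bases before it. The Cnn1 window (chr9:22099003-22099302, plus strand) holds no match with up to 1 base off, and neither do those of Des, Vim and Pdgfra.
Acta2: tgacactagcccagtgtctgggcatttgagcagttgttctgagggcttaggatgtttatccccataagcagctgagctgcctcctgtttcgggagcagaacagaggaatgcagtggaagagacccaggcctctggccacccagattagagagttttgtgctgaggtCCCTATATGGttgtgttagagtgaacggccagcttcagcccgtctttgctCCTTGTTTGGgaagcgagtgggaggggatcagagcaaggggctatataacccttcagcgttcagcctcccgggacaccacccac
Myl9: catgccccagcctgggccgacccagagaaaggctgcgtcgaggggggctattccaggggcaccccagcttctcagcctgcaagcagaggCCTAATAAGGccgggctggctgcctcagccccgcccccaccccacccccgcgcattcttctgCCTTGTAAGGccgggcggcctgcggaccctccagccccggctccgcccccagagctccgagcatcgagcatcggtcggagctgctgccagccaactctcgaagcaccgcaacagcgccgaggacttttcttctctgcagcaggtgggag
Cnn1: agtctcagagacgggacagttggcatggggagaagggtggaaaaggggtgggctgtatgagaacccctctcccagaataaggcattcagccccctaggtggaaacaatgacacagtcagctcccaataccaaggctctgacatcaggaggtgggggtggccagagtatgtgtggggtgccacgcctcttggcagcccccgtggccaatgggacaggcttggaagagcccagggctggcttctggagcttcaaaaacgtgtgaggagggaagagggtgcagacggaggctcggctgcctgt
Of 32851 promoter windows of this length, 535 (1.63%) hold an exact CArG box and 6936 (21.1%) hold one with up to 1 base off. No promoter of Myh11, Tagln, Pdgfrb or Dcn is shown.

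Of the 10 genes, each read through its brightest probe, Cnn1 was lower in KO, Pdgfrb was higher, and the other 8 did not pass the test. That is 20% of the set, against 12.8% of all 15523 genes (1991), of which 8.31% were higher and 4.52% lower in KO. The median log2 ratio of the 10 genes was -0.019, against 0.013 over all genes, with 7 genes below 0 and 3 above. An unadjusted p under 0.05 was found for 3 of the 10, against 30.33% of all genes, and 3 of the 10 had 1 sign on all their arrays, against 39.5% of all genes. Counted by probe, 2 of the 14 passed, against 10.7% of all tested probes (6.63% higher and 4.12% lower in KO). The share of the set that passed or kept 1 sign was thus near that of the array as a whole. In whole pancreas, fewer cells of a type and less RNA per cell cannot be told apart in any of these values. All 14 probes were well above background in both channels on every array with a value, and none was saturated.

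**Figure D1:**
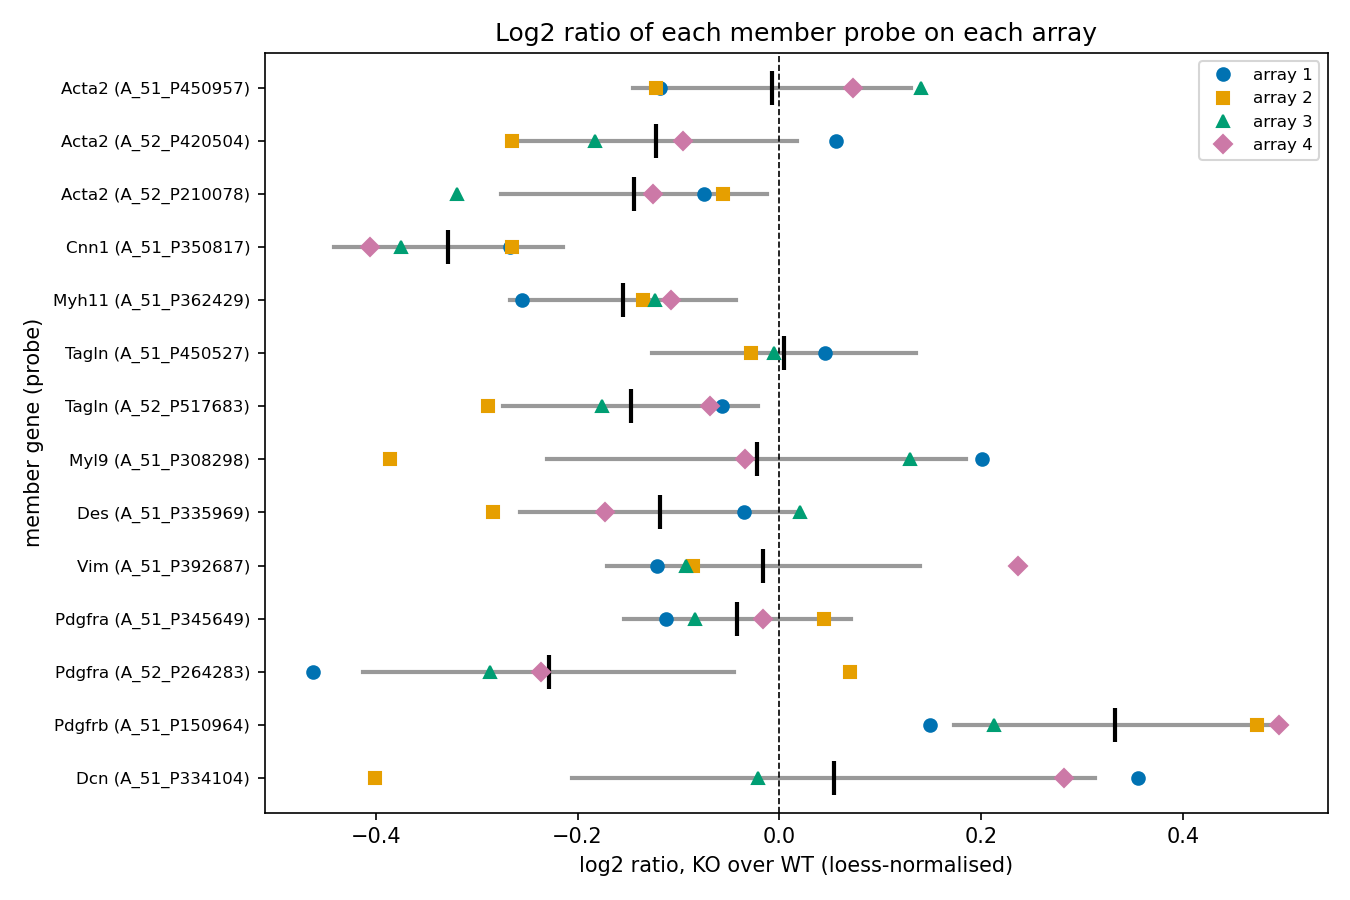
Log2 ratio of KO over WT (horizontal axis) of the 14 probes of the 10 genes (rows, gene with probe). Coloured markers are the 4 arrays, black bars the mean and grey lines the 95% confidence interval of limma's fit. Cnn1 lies left of 0 and Pdgfrb right of 0 on all 4 arrays.

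Cnn1 encodes calponin 1, an actin-binding protein of differentiated smooth muscle that restrains the myosin ATPase. Its log2 channel level, after loess and quantile normalisation of brightness between arrays, was 11.62, 11.46, 11.53 and 11.60 in the KO extracts of arrays 1 to 4, against 11.89, 11.72, 11.90 and 12.01 in the WT extracts. The highest KO extract stayed below the lowest WT extract, but the share of all genes with levels split in this way was not counted. Cnn1 was read through 1 probe with 1 spot per array. The levels averaged 11.55 ± 0.075 in KO and 11.88 ± 0.12 in WT (SD, n = 4 each). On arrays 1 to 4 the ratio was -0.27, -0.26, -0.37 and -0.41. Cnn1 fell by 0.33 on the log2 scale in KO (SE 0.049, 95% confidence interval -0.44 to -0.21, limma adjusted p = 0.00678), which is a fold of 0.797. With each array centred on its median in place of loess its log2 ratio was 0.12 (limma adjusted p = 0.0917), and it then lay 0.14 below the median of all genes, which that centring moved to 0.26, against 0.013 with loess.

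Myh11 encodes the smooth muscle myosin heavy chain, the motor of contraction and the marker most restricted to mature smooth muscle. Its log2 channel level was 13.36, 13.37, 13.33 and 13.51 in KO extracts, against 13.62, 13.51, 13.45 and 13.62 in WT extracts. KO was the lower extract on each array, and the KO extract of array 4 reached above the WT extract of array 3. The log2 ratio was -0.16 ± 0.049 (SE, limma adjusted p = 0.0815), which missed the threshold, and with median centring it lay 0.10 above the median of all genes.

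Acta2 encodes alpha smooth muscle actin, the usual marker of smooth muscle, myofibroblasts and activated stellate cells, and had 3 probes to 1 transcript. The brightest (A_51_P450957) gave -0.12, -0.12, 0.14 and 0.073 on arrays 1 to 4. Its log2 channel level averaged 14.38 ± 0.17 in KO and 14.39 ± 0.13 in WT (SD, n = 4 each), and the groups overlapped. The mean log2 ratio was -0.0070 ± 0.060 (SE, limma adjusted p = 0.955), with a 95% confidence interval of -0.14 to 0.13. The middle probe (A_52_P420504) gave 0.057, -0.26, -0.18 and -0.096, with a mean of -0.12 ± 0.061 (SE, limma adjusted p = 0.236). The dimmest (A_52_P210078) was below 0 on all 4 arrays, at -0.075, -0.056, -0.32 and -0.13, and its mean of -0.14 ± 0.057 (SE, limma adjusted p = 0.15) did not pass.

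Tagln encodes transgelin (SM22), an actin-bundling relative of the calponins. Its brighter probe (A_51_P450527) gave 0.046, -0.028 and -0.0050 on arrays 1 to 3, with no value on array 4, where its spot was marked as non-uniform and left out. The mean was 0.0042 ± 0.056 (SE, n = 3 arrays, limma adjusted p = 0.973). The dimmer probe (A_52_P517683) was below 0 on each array, at -0.056, -0.29, -0.18 and -0.069, and averaged -0.15 ± 0.055 (SE, limma adjusted p = 0.129). For Acta2 and Tagln alike, the brightest probe had the mean nearest 0 and the dimmest the lowest mean. The means of the probes of Acta2 spanned 0.14 on the log2 scale with loess and 0.85 with median centring, from -0.31 on the dimmest probe to 0.54 on the brightest. For Tagln the same spans were 0.15 and 0.52.

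Myl9 encodes the regulatory light chain of smooth muscle myosin, whose phosphorylation starts contraction. Its log2 channel level was 10.89, 10.89, 8.57 and 10.66 in KO extracts, against 10.69, 11.27, 8.44 and 10.69 in WT extracts. Both extracts of array 3 were far below those of the other arrays, with a raw median signal of 666 in KO and 240 in WT. The ratio was 0.20, -0.39, 0.13 and -0.034 on arrays 1 to 4, with both signs, and averaged -0.023 ± 0.090 (SE, limma adjusted p = 0.899). Without replicate 3 it averaged -0.073 (limma adjusted p = 0.727).

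**Figure D2:**
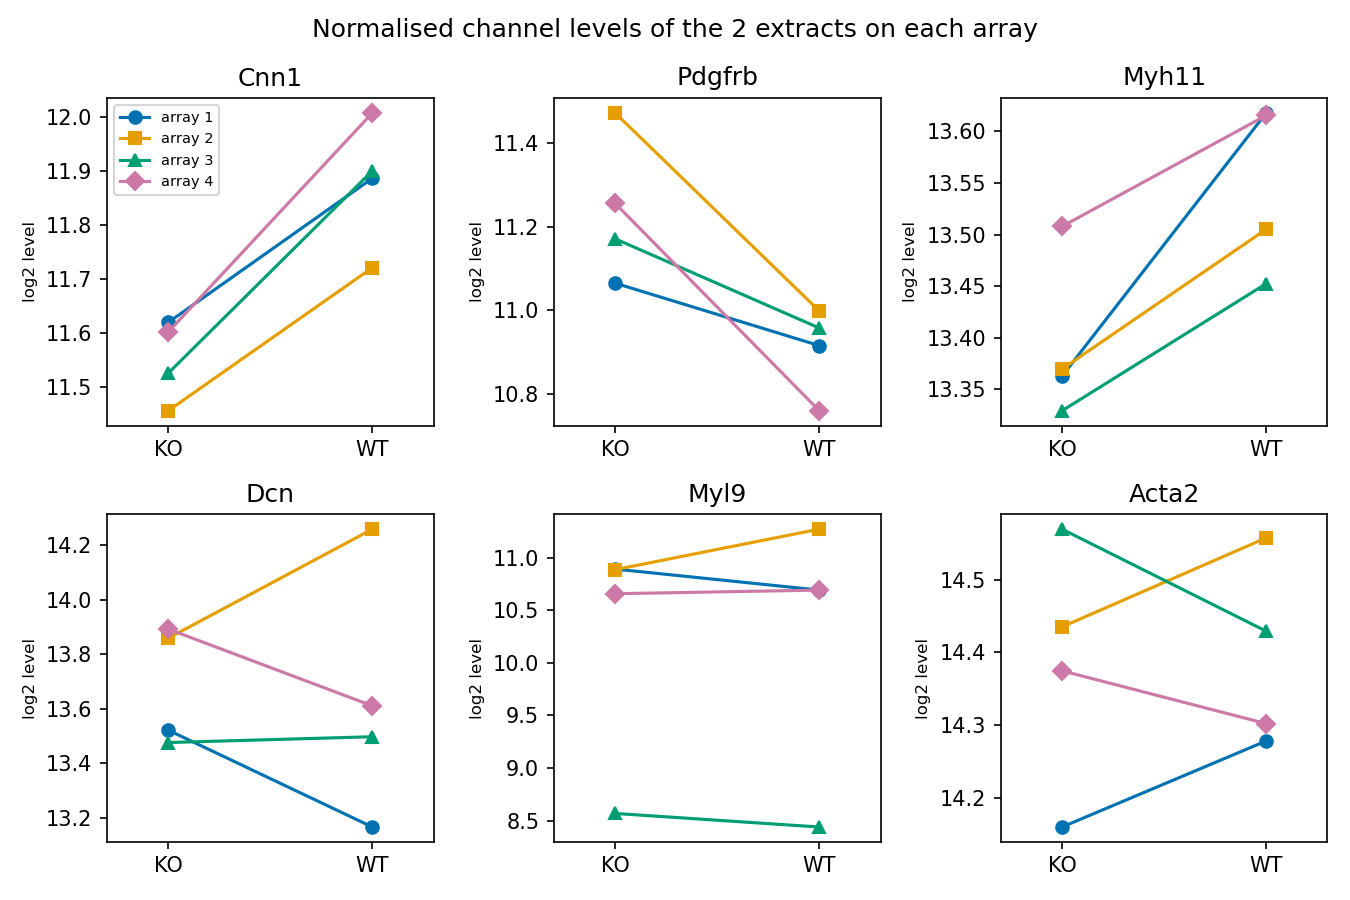
Normalised log2 level (vertical axis, its range differing between panels) of the KO and WT extract of each array for 6 of the 10 genes, read through the brightest probe; a line joins the extracts of 1 array. All KO levels lie below all WT levels for Cnn1 and above them for Pdgfrb, a split whose share among all genes was not counted. Both levels of Myl9 on array 3 lie far below the rest.

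Des and Vim encode intermediate filament proteins. Desmin links the contractile apparatus of muscle cells and marks pancreatic stellate cells and pericytes, and vimentin fills mesenchymal cells in general. The probe of Des had 10 spots per array and gave -0.035, -0.28, 0.020 and -0.17 on arrays 1 to 4. Its levels averaged 10.40 ± 0.097 in KO and 10.51 ± 0.11 in WT (SD, n = 4 each, log2), and the mean ratio of -0.12 ± 0.061 (SE, limma adjusted p = 0.251) did not pass. Vim gave -0.12, -0.085, -0.093 and 0.24 on arrays 1 to 4. Array 4 thus stood apart from the other 3, and the mean was -0.016 ± 0.068 (SE, limma adjusted p = 0.906). The level of Vim in the KO extract of array 4 was 14.29, the highest of the 8, and in the WT extract of that array it was 14.05.

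The probe of Acta2 with the middle brightness, that of Des and the brighter one of Pdgfra were each printed in 10 spots per array. This separates the scatter between spots from that between arrays, in which extract and array cannot be told apart. Within an array the spots had an SD of 0.040 to 0.10 on the log2 scale. The spots of Des ran from -0.376 to -0.164 on array 2 and from -0.056 to 0.079 on array 3, without overlap. Those of Acta2 ran from -0.035 to 0.205 on array 1 and from -0.328 to -0.164 on array 2, again without overlap. For both, the arrays differed by more than the repeated spots, with an SD over the array means of 0.14 each. For Pdgfra the SD over the array means was 0.070, against 0.072 to 0.10 between its single spots. Each array mean averages 10 spots, so these SDs are of different kinds, and whether its arrays differed beyond spot scatter was not tested.

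**Figure D3:**
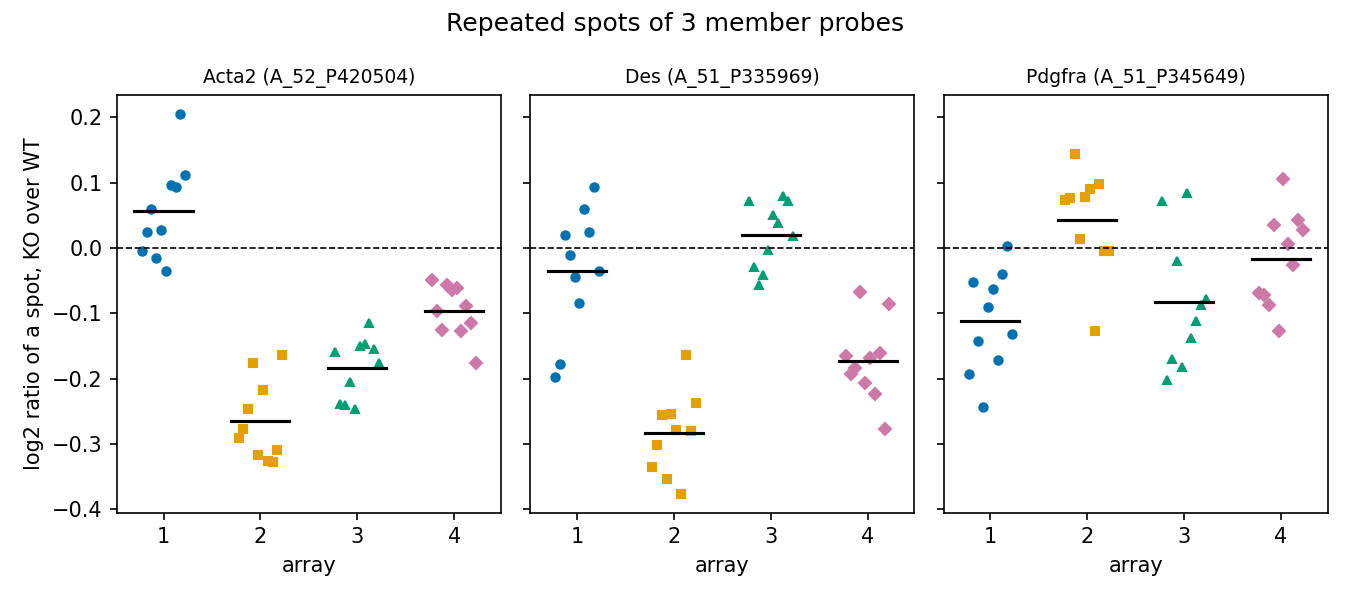
Log2 ratio of KO over WT (vertical axis) of the 10 spots of the same probe on each array (horizontal axis) for Acta2, Des and Pdgfra; points are spots and black bars their mean. The spots of Des on array 2 lie wholly below those on array 3.

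Pdgfra encodes the PDGF receptor of fibroblasts and other mesenchyme. Its brighter probe (A_51_P345649) gave -0.11, 0.044, -0.083 and -0.016 on arrays 1 to 4, with a mean of -0.042 ± 0.049 (SE, limma adjusted p = 0.624) and a 95% confidence interval of -0.15 to 0.071. The dimmer probe (A_52_P264283) gave -0.46, 0.070, -0.29 and -0.24. It was low on 3 arrays and above 0 on array 2, and its mean of -0.23 ± 0.080 (SE, limma adjusted p = 0.11) did not pass. Without replicate 2 its mean was -0.33 (limma adjusted p = 0.025).

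Pdgfrb encodes the PDGF receptor by which pericytes are recruited to vessels. Its log2 channel level was 11.06, 11.47, 11.17 and 11.26 in KO extracts, against 10.92, 10.998, 10.96 and 10.76 in WT extracts. The lowest KO extract lay above the highest WT extract, but here too the share of all genes split in this way was not counted. Pdgfrb was read through 1 probe with 1 spot per array. The levels averaged 11.24 ± 0.17 in KO and 10.91 ± 0.10 in WT (SD, n = 4 each). The ratio was 0.15, 0.47, 0.21 and 0.50 on arrays 1 to 4, and Pdgfrb rose by 0.33 on the log2 scale in KO (SE 0.069, 95% confidence interval 0.17 to 0.49, limma adjusted p = 0.0223), a fold of 1.26. With median centring it lay 0.49 above the median of all genes. The call was lost without replicate 2 (0.29, limma adjusted p = 0.0633), without replicate 4 (0.28, limma adjusted p = 0.0768), on Feature Extraction's processed signals (limma adjusted p = 0.059) and on the deposited log ratio (limma adjusted p = 0.0579).

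Dcn encodes decorin, a small leucine-rich proteoglycan that binds collagen fibrils and TGF-beta. Its log2 channel level was 13.52, 13.86, 13.48 and 13.89 in KO extracts, against 13.17, 14.26, 13.50 and 13.61 in WT extracts. The WT extracts spread further than the KO extracts and enclosed them. The ratio was 0.36, -0.40, -0.021 and 0.28 on arrays 1 to 4, with 2 arrays on each side of 0. The mean of 0.054 ± 0.11 (SE, limma adjusted p = 0.796) had an SE above that of 98.0% of tested probes.

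Array 2 was the lowest of the 4 for Dcn, Myl9 and Des and for the middle probe of Acta2. On that array 8 of the 10 genes were below 0 and their median was -0.13, against 6, 6 and 5 genes and medians of -0.073, -0.013 and -0.016 on arrays 1, 3 and 4. The 7 tested mesothelial genes also had their lowest median there, at -0.34, against -0.10, -0.094 and -0.15 on arrays 1, 3 and 4. Msln, which encodes the mesothelial surface protein mesothelin, was at -1.05 on array 2. The summed level of these 7 genes ran from 2670 to 3670 in KO and from 2470 to 4120 in WT on the linear scale, and all 7 were well above background on every array. The 9 tested macrophage genes had their lowest median on array 2 as well, at -0.31, against 0.11, 0.19 and 0.0083 on arrays 1, 3 and 4, and summed to 7980 to 9770 in KO and 7250 to 9530 in WT. The part of either group of genes in the values of array 2 was not tested. Without replicate 2 the mean log2 ratio was 0.21 for Dcn, 0.098 for Myl9 and -0.063 for Des (limma adjusted p = 0.155, 0.357 and 0.537), so that Myl9 changed sign and none of the 3 passed.

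**Figure D4:**
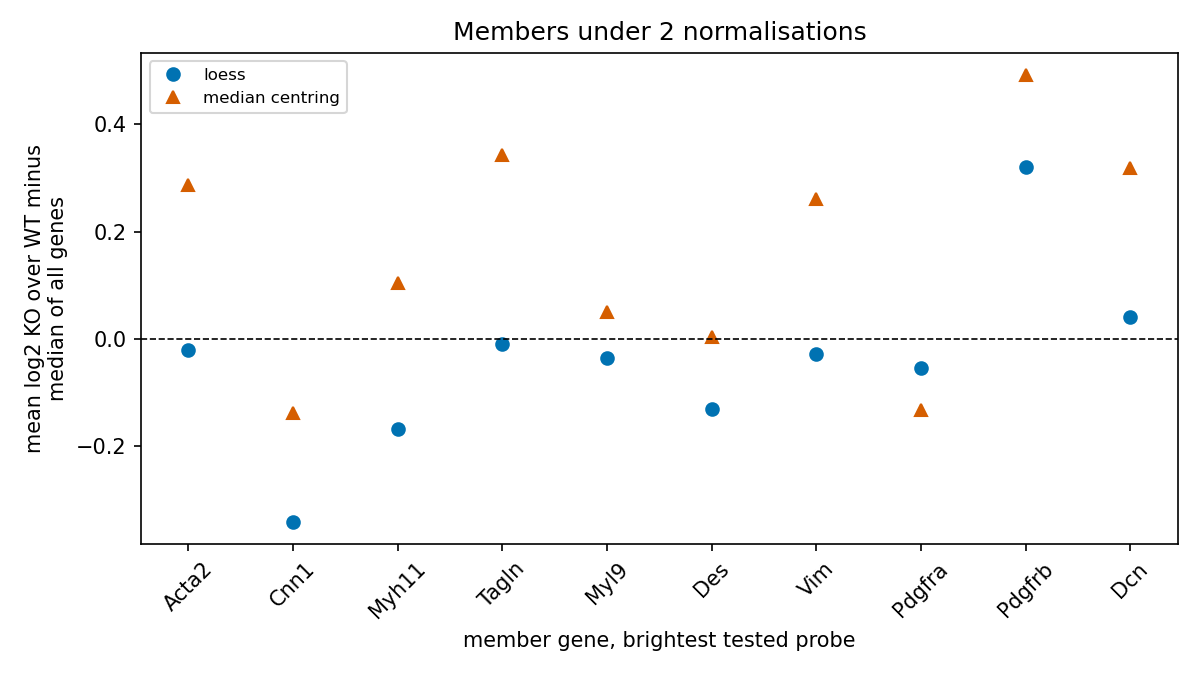
Mean log2 ratio of KO over WT minus the median of all genes (vertical axis) for the brightest probe of each of the 10 genes (horizontal axis), with loess (circles) and with each array centred on its median (triangles). Cnn1 and Pdgfra lie below 0 and Pdgfrb and Dcn above 0 under both, whereas Acta2, Myh11, Tagln, Myl9, Des and Vim are below 0 with loess and above it with centring.

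Beyond the 10 genes, the list of contractile smooth muscle genes had 27 tested members, each read through its brightest probe. Of these, 3 fell in KO, none rose and 24 did not pass the test (11.1% called, against 12.8% of all genes). The median was -0.071, with 21 of 27 below 0. Relative to the median of all genes the list's median was -0.084 with loess and 0.051 with median centring, so its sign depends on the normalisation. The genes that fell were Cnn1, Smtn and Cald1. Smtn, which encodes smoothelin, an actin-associated protein of contractile smooth muscle, gave -0.90, -0.50, -1.10 and -0.69 on arrays 1 to 4. It fell by 0.80 on the log2 scale (SE 0.090, limma adjusted p = 0.00241), a fold of 0.576, and passed in all 16 settings tried. Its size depended on the normalisation, since with median centring it was at -0.24 (limma adjusted p = 0.0224), or 0.50 below the median of all genes. Cald1, which encodes caldesmon, another inhibitor of the actin-activated myosin ATPase, was at -0.36 ± 0.074 (SE, limma adjusted p = 0.0211), while its other probe was at -0.034 (limma adjusted p = 0.743). Itga8, an integrin subunit of smooth muscle and stellate cells, was at -0.17 ± 0.053 and the matrix gene Smoc2 at -0.28 ± 0.076 (SE), and neither passed on its brightest probe. The other probe of Smoc2 was at -0.43 ± 0.056 (SE) and passed (limma adjusted p = 0.00428), and that of Itga8 was at 0.00018 (limma adjusted p = 0.999). Dimmer probes also passed as lower in KO for Vcl (-0.38, limma adjusted p = 0.00304) and Tpm1 (-0.20, limma adjusted p = 0.0291). A dimmer probe of Ldb3 passed as higher in KO (0.21, limma adjusted p = 0.03). The brightest probes of Vcl, Tpm1 and Ldb3 were at -0.054, -0.0054 and -0.096. The call of Cald1 was lost without replicate 1 (limma adjusted p = 0.0747) and without replicate 3 (limma adjusted p = 0.0549), and Smoc2 passed without replicate 4 (-0.35, limma adjusted p = 0.0404). The list thus held 2 to 4 genes that fell when 1 array was left out. The summed level of the 21 list genes that are not among the 10 ran from 87300 to 99200 in KO, against 111000 to 115000 in WT. Without Smtn it ran from 68700 to 80500 in KO, against 76000 to 86900 in WT, and the groups overlapped.

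The relatives of Acta2, Cnn1, Tagln, Myl9 and Myh11 in other cell types gave no call. Of 20 tested actins, myosin light and heavy chains, calponins, transgelins and tropomyosins, Cnn1 alone passed (5% called, against 12.8% of all genes). The 15 that are not among the 10 genes ran from -0.10 to 0.15. The median of the 20 lay 0.027 below that of all genes with loess and 0.14 above it with median centring. The other smooth muscle actin, Actg2, which is the enteric form, was at -0.078 ± 0.066 (SE, limma adjusted p = 0.479). The cytoplasmic actins Actb and Actg1 were at -0.067 ± 0.050 and 0.13 ± 0.053 (SE). Cnn2 and Cnn3, the calponins of non-muscle cells, were at 0.022 ± 0.059 and 0.041 ± 0.050 (SE). A difference between Cnn1 and its relatives was not tested. Myl6 and Myl12b, light chains of smooth and non-muscle myosin, were at 0.028 ± 0.050 and -0.087 ± 0.049, and Tagln2 and Tagln3 at -0.10 ± 0.053 and 0.15 ± 0.052 (SE). The actins of striated muscle, Acta1 and Actc1, were at -0.068 ± 0.050 and -0.0051 ± 0.054 (SE).

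Skeletal and heart muscle genes, which mark muscle carried along at dissection, held 1 gene that rose and 2 that fell of 20 tested. That is 15% called, against 12.8% of all genes. Ckm, the muscle creatine kinase, was at 0.26 ± 0.066 (SE, limma adjusted p = 0.0458), Myh8, the perinatal myosin heavy chain, at -0.23 ± 0.049 and Neb, which encodes nebulin, at -0.31 ± 0.078 (SE), though with median centring Ckm lay 0.050 below and Myh8 0.061 above the median of all genes. The other 4 probes of Neb were between -0.12 and -0.065, and none of them passed. A dimmer probe of Myl1 was at 0.20 and passed (limma adjusted p = 0.0454), while its brightest was at 0.013 (limma adjusted p = 0.881). Leaving out 1 array ended all 3 calls for some arrays, with Ckm at limma adjusted p = 0.116, 0.108 and 0.154 without replicates 2, 3 and 4. The same values were 0.0768, 0.125 and 0.11 for Neb, and Myh8 stood at 0.0791, 0.088 and 0.105 without replicates 1, 3 and 4 (all limma adjusted p). The summed level of the 20 genes ran from 73400 to 80800 in KO, against 77600 to 83500 in WT, and 17 of the 20 stood well above background on every array, in KO and in WT. Myog, which encodes myogenin, differed widely between arrays, at -2.66, -0.12, -2.47 and 1.60 on arrays 1 to 4. Its mean of -0.91 ± 0.62 (SE, limma adjusted p = 0.375) did not pass.

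Of 15 tested pericyte genes, Pdgfrb and Anpep rose in KO and none fell (13.3% called, against 12.8% of all genes). In this list 11 of 15 were below 0 and the median was -0.042. Anpep, an aminopeptidase of pericytes and of epithelial brush borders, was at 0.27, 0.23, 0.37 and 0.20 on arrays 1 to 4, with a mean of 0.26 ± 0.050 (SE, limma adjusted p = 0.0156). Its call was lost without replicate 1 (limma adjusted p = 0.0544) and without replicate 3 (limma adjusted p = 0.0678). With 1 array left out the list held 1 gene that rose, but not the same gene each time. It was Pdgfrb without replicate 1 or 3 and Anpep without replicate 2 or 4. Mcam, an adhesion molecule of pericytes and endothelium, was at -0.27 ± 0.077 (SE, limma adjusted p = 0.0604) on its brightest probe and at -0.27 ± 0.055 (SE, limma adjusted p = 0.0201) on its other one, which passed. Higd1b, a pericyte marker, was at -0.22 ± 0.063 (SE, limma adjusted p = 0.0594). The summed level of the 14 pericyte genes other than Pdgfrb ran from 27300 to 29900 in KO, against 25000 to 29200 in WT, and all 14 were well above background on every array. Endothelial genes, whose cells the pericytes cover, were mostly below 0, at 9 of 10 with a median of -0.12, while with median centring 6 of 10 lay below the array-wide median. The list's median minus the array-wide one was -0.13 with loess and -0.036 with median centring. Of these the receptors Tek (-0.29 ± 0.066, SE) and Flt1 (-0.26 ± 0.062, SE) fell, with limma adjusted p = 0.0283 and 0.0364. That is 20% of the endothelial list, against 12.8% of all genes. The call of Tek was lost without replicates 3 and 4 (limma adjusted p = 0.0932 and 0.087), and that of Flt1, whose other probe was at -0.10 (limma adjusted p = 0.196), without replicates 1, 3 and 4 (limma adjusted p = 0.119, 0.116 and 0.119).

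The ligands of the PDGF receptors did not move together. Pdgfd, a ligand of Pdgfrb, was at -0.19, -0.35 and -0.50 on arrays 1 to 3, with no value on array 4, and fell by 0.35 on the log2 scale (SE 0.072, n = 3 arrays, limma adjusted p = 0.0266). With 1 of these 3 arrays left out Pdgfd was no longer tested, so the stability of this call could not be checked. Pdgfb, the main endothelial ligand of Pdgfrb, was at 0.13 ± 0.045 (SE, limma adjusted p = 0.0952). The ligands of Pdgfra, Pdgfa and Pdgfc, were at 0.047 ± 0.068 and -0.15 ± 0.056 (SE) on their brightest probes, and neither passed. Pdgfc was read on 3 arrays there, and its other probe, read on all 4, was at -0.32 ± 0.064 (SE) and passed (limma adjusted p = 0.0199). That probe was the one read without replicates 1, 3 and 4, at -0.30, -0.39 and -0.31 (limma adjusted p = 0.0748, 0.0136 and 0.0627). Of these, it passed only without replicate 3. Across 20 tested ligands and signal carriers, Pdgfrb rose, Pdgfd fell and 18 did not pass (10% called, against 12.8% of all genes).

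Stellate cell and mesenchyme genes had 28 tested members. On their brightest probes 1 fell and none rose (3.57% called, against 12.8% of all genes), with a median of -0.0068. The one that fell was Pdpn, which encodes podoplanin, found on mesenchymal, mesothelial and lymphatic cells. It was at -0.40 ± 0.10 (SE, limma adjusted p = 0.0403), and its other probe at -0.13 (limma adjusted p = 0.402). The call was lost without replicates 1, 2 and 3 (limma adjusted p = 0.0831, 0.0921 and 0.0788). A dimmer probe of Prrx1 was at -0.26 and passed (limma adjusted p = 0.0234), while its brightest was at -0.061 (limma adjusted p = 0.493). The mesenchymal transcription factors Hand2 and Twist1 were at 0.16 ± 0.055 (SE, n = 3 arrays) and 0.14 ± 0.052 (SE), and neither passed. Among 9 tested small leucine-rich proteoglycans, the relatives of Dcn, 2 fell and none rose (22.2% called, against 12.8% of all genes). Aspn, which encodes asporin, gave -0.55, -0.76, -0.50 and -0.21 on arrays 1 to 4 and fell by 0.51 on the log2 scale (SE 0.082, limma adjusted p = 0.00881). Ogn, which encodes osteoglycin, was at -0.33 ± 0.069 (SE, limma adjusted p = 0.0221), and at -0.35 without replicate 3, where the call was lost (limma adjusted p = 0.0583). Bgn, which encodes biglycan, the closest relative of decorin, was at -0.18 ± 0.058 (SE, limma adjusted p = 0.0929).

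Among 13 tested intermediate filament and linker genes, 3 rose and none fell (23.1% called, against 12.8% of all genes), and neither Des nor Vim was among them. With 1 array left out 1 to 3 rose, the count being 1 without replicate 1, 3 or 4. The genes that rose were Krt8 (0.21 ± 0.054, SE) and Krt18 (0.30 ± 0.048, SE), the paired keratins of simple epithelium, and Lmnb1 (0.28 ± 0.056, SE), a nuclear lamin, with limma adjusted p = 0.0442, 0.0081 and 0.0197. The call of Krt18 held whichever array was left out, that of Lmnb1 was lost without replicates 1, 3 and 4 (limma adjusted p = 0.0739, 0.0549 and 0.0775), and that of Krt8 without any one array (limma adjusted p = 0.0754 to 0.16).

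The genes of SRF, myocardin and TGF-beta signalling, which act upstream of the contractile genes, had 26 tested members. Of these, 1 rose, 6 fell and 19 did not pass (26.9% called, against 12.8% of all genes). The median was -0.059, with 20 of 26 below 0, and relative to the median of all genes it was -0.071 with loess and -0.13 with median centring. Smad3, a TGF-beta signal carrier, rose by 0.54 on the log2 scale (SE 0.050, limma adjusted p = 0.00163), with 0.45, 0.62, 0.50 and 0.58 on arrays 1 to 4, and its other probe was at 0.35 (limma adjusted p = 0.00886). The ligands Tgfb1 (-0.26 ± 0.052, SE) and Tgfb3 (-0.31 ± 0.052, SE) fell, with limma adjusted p = 0.021 and 0.0101. The receptors Tgfbr1 (-0.32 ± 0.059, SE) and Tgfbr3 (-0.25 ± 0.066, SE) fell, with limma adjusted p = 0.0144 and 0.0497. Ccn2, a matricellular gene induced by TGF-beta, was at -0.47, -0.20, -0.98 and -0.26 on arrays 1 to 4, with a mean of -0.48 ± 0.12 (SE, limma adjusted p = 0.037). Myocd, which encodes myocardin itself, was at -0.19 ± 0.048 (SE, limma adjusted p = 0.0426), while its other probe was at 0.085 (limma adjusted p = 0.312). With 1 array left out, 2 to 4 genes of the list fell in place of 6, the count being 2 without replicate 1 and without replicate 4. Myocd and Tgfbr3 did not pass without any one array (limma adjusted p = 0.064 to 0.154 and 0.0627 to 0.138). The call of Ccn2 was lost without replicate 1 (limma adjusted p = 0.106). That of Tgfbr1, whose other probe was at -0.19 (limma adjusted p = 0.0562), was lost without replicate 4 (limma adjusted p = 0.0513). Tgfb1 lost its call without replicates 1, 2 and 4 (limma adjusted p = 0.0649, 0.05 and 0.0611), the value without replicate 2 not being under the threshold. Smad3 and Tgfb3 passed whichever array was left out. Ccn2, Myocd and Tgfbr3 were named after their values were seen.

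**Figure D5:**
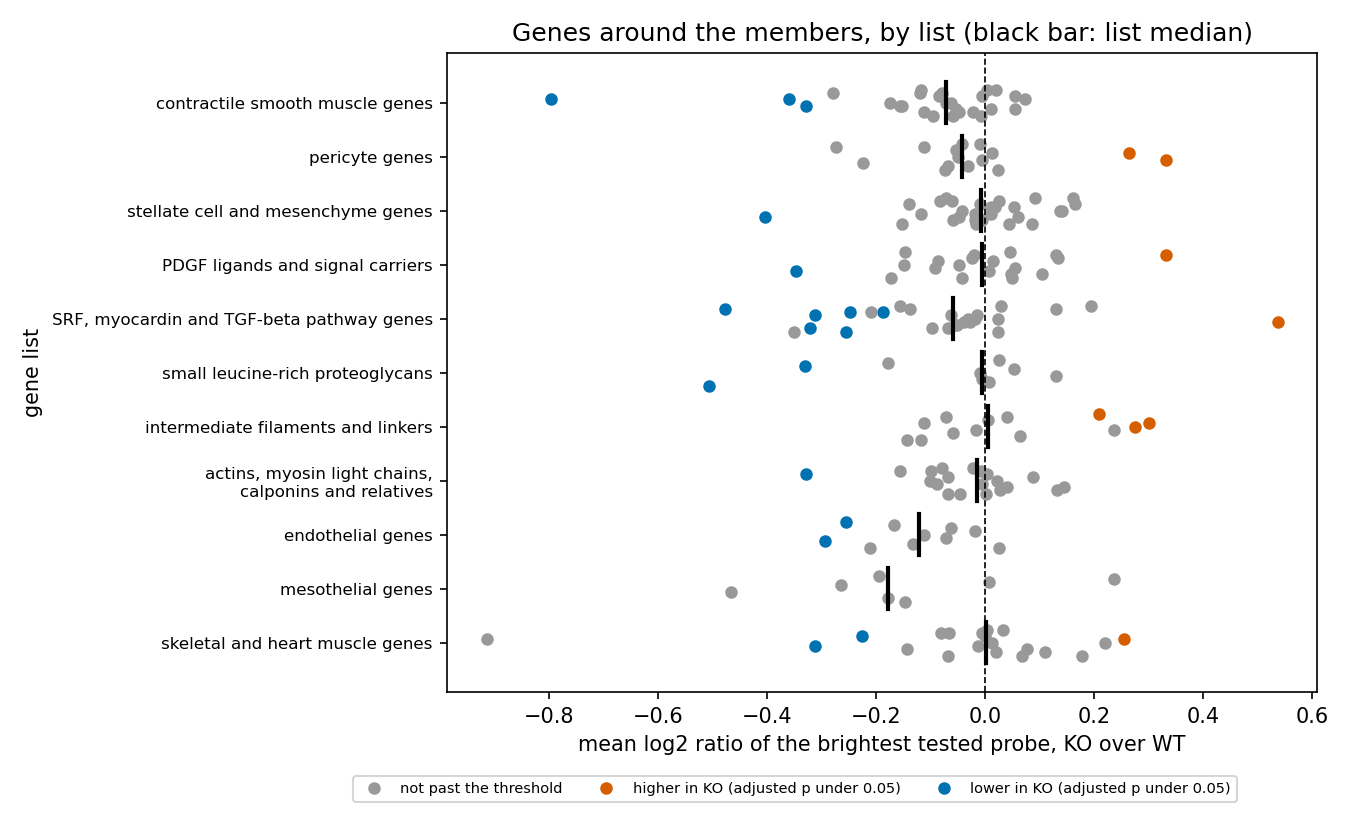
Mean log2 ratio of KO over WT (horizontal axis) of the brightest tested probe of each gene in 11 gene lists (rows); points are genes, coloured by whether they passed limma's test (adjusted p under 0.05), and black bars are list medians. The SRF, myocardin and TGF-beta list holds 6 genes that fell and 1 that rose, and Smtn is the lowest point of the contractile list.

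Markers of other cells in the extracts gave these values beside the results above. No mesothelial, glial, duct, liver, or gut and spleen gene passed limma's test, of 7, 9, 9, 7 and 7 tested, and 4, 2, 2, 2 and 0 of them had an unadjusted p under 0.05. Without replicate 3, 4 liver genes rose, and without replicate 1 or 2, 1 duct gene rose. Without replicate 2, 1 mesothelial gene also rose. Of 13 acinar genes 4 rose and 3 fell (53.8% called, against 12.8% of all genes), of 11 islet genes 1 fell (9.09%), and of 9 macrophage genes 1 rose (11.1%). With 1 array left out, 4 to 5 acinar genes rose and 1 to 2 fell, the count that fell being 1 without replicate 1 and without replicate 3, and the islet call was lost without either of these. The 13 acinar genes, which mark the pancreas itself, were well above background on every array, with a summed level of 803000 to 1050000 in KO, against 782000 to 875000 in WT. Liver genes summed to 6380 to 16700 in KO, against 4840 to 9360 in WT. They differed widely between arrays, with a median log2 ratio of 1.82, 0.79, -0.48 and 0.61 on arrays 1 to 4. Alb, which encodes albumin, was at 4.13, 2.70, -3.52 and 1.44. The part of liver genes in the results was not tested. Cyp11a1 itself gave -0.16 ± 0.070 (SE, limma adjusted p = 0.179), from a probe whose place relative to the deleted part is not known here, so it checks nothing. Median signals ran from 304 to 467 in KO and from 163 to 224 in WT per array.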

How the data were processed

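RNA of 4 KO and 4 WT pancreas extracts was hybridised in pairs to 4 two-colour arrays. Spots were read by the authors, who used Agilent software (the submitters' processing notes name Feature Extraction 10.5.1.1). The deposited tables hold, per the file headers, median and processed signals as intensity on a linear scale, marks for non-uniform, saturated and well-above-background spots, and log10 ratios of red over green.

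Median signals were corrected for background with normexp (offset 50) and normalised by loess in limma 3.58.1 under R 4.3.3, with control and non-uniform spots at weight 0. Afterwards the 597 to 979 non-uniform spots of each array were removed, and repeated spots of a probe were averaged. A probe was tested if well above background in either channel on at least 3 arrays. Log2 ratios were fitted against 0 with lmFit and eBayes, so each array pairs its extracts, and two-sided p-values were adjusted over 32588 probes. Symbols came from matching RefSeq accessions to a gene table of GRCm38.p6, which named 25097 of 41174 probes. The test was also run on simulated data.

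The 10 genes and the gene lists were chosen with earlier results of these data known. Named genes were all 10 genes with all probes, up to 4 genes of each list with the smallest p, the actin, myosin light chain, calponin and transgelin relatives, and the PDGF ligands. Vcl, Tpm1, Ldb3, Prrx1 and Myl1 were named after a dimmer probe was seen to pass, and Alb and Myog for their spread between arrays. The values of these genes under the other settings are not given. All arrays share 1 slide and 1 scan. Where a label does not state separate embryos, p-values measure only the spread between these extracts. The glia, duct, macrophage, liver, gut, islet and acinar lists mark other cells that the extracts can hold.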

Additional observations from a re-analysis of the deposited data

Results flagged for a closer look

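Of 39 groups of 4 values checked among the probes of the 10 genes, 2 had 1 value far from the other 3, and chance alone gives about 1 in 20. The log2 level of Myl9 in the KO extract of array 3 was 8.567, while the other KO extracts lay between 10.66 and 10.89. The WT extract of that array was low too, at 8.44, so the log2 ratio there was 0.13. The log2 ratio of Vim was 0.2363 on array 4, while the other arrays lay between -0.1214 and -0.08533. The gap was 0.899 of the whole range in both cases, above Dixon's 95% critical value for 4 values.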

How the results depend on the processing

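In place of the 3501 probes, 2 of the 10 genes, 2 of their probes and 33 genes of the gene lists that passed, 1992, 1, 1 and 12 passed on processed signals with loess, 2061, 1, 1 and 12 on the deposited log ratio, 154, 0, 0 and 4 when the channels were fitted singly and unpaired, and 23560, 8, 10 and 176 with median centring. Leaving out 1 array gave 1500 to 2433 probes (1500 without replicate 3, 1744 without replicate 1 and 1881 without replicate 4), 1 to 2 genes, 1 to 2 probes and 20 to 26 list genes. Of the 16 settings, Cnn1 passed in 14, Pdgfrb in 11 and Smtn in 16, each with the sign given above. Each ratio is itself paired within its array, and in the fit of single channels, which drops the pairs, Cnn1 stood at limma adjusted p = 0.141 and Pdgfrb at 0.234.

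Median centring, which by its construction takes no account of brightness, moved the median of all genes to 0.26, and 22 of 24 called genes named here kept their sign relative to it (Ckm and Myh8 did not). Against 0, 16 of the 24 kept their sign and 11 passed with it. Against 0 it turned these log2 ratios round. Of the 10 genes these were Acta2 0.54 (probe A_52_P420504 0.21), Cnn1 0.12, Myh11 0.36, Myl9 0.31, Des 0.26, Vim 0.52, Pdgfra 0.12 and the dimmer Tagln probe 0.076. Among the others these were Acta1 0.22, Actb 0.51, Actc1 0.36, Actg2 0.40, Bgn 0.22, Cald1 0.035, Flt1 0.014, Itga8 0.39, Mcam 0.077, Myh8 0.32, Myl12b 0.40, Neb 0.022, Ogn 0.044, Pdgfc 0.19, Smoc2 0.091, Tagln2 0.29, Tgfb3 0.11 and Tgfbr1 0.18. Values near 0 also changed sign elsewhere. On processed signals Acta2 was at 0.0056, Myl9 at 0.043, Cnn3 at -0.0060 and Pdgfa at -0.0084, and on the deposited log ratio Acta2 was at 0.014, Myl9 at 0.051 and Pdgfa at -0.0037. Scaling between arrays gave Acta2 0.0012, Vim 0.012 and Actc1 0.0054, and array weights gave Acta2 0.021, Myl9 0.00067, Vim 0.038 and Actc1 0.020. Tagln was at -0.15 under the strict filter, which leaves only its dimmer probe, and at -0.081 as the mean of its probes. Leaving out 1 array gave ranges that cross 0 for Acta2 (-0.056 to 0.032), Vim (-0.10 to 0.019), Dcn (-0.047 to 0.21), Myl9 (-0.097 to 0.098), Cnn2 (-0.026 to 0.078), Actc1 (-0.027 to 0.046) and Pdgfa (-0.0052 to 0.097). Tagln changed sign with the probe read. Without replicate 1, 2 or 3 its dimmer probe was read, at -0.18, -0.10 and -0.14, and without replicate 4 its brighter probe, at 0.0042. None of these near-0 values passed the test.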
